A study of Mus musculus with 4 samples.

Results

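Syndecans and glypicans are the cell-surface proteoglycans that carry heparan sulfate, and their transcripts were followed here in sorted pancreatic β cells from control and Robo mutant mice, Robo standing for the Roundabout guidance receptors. The genes were taken by symbol from the deposited gene table and comprise the 4 syndecans Sdc1 to Sdc4 and the 6 glypicans Gpc1 to Gpc6, 10 of the 51912 genes listed. Pancreatic islets of mouse neonates at day 13 were dissociated, and mCherry-positive cells were sorted by flow cytometry. The table holds 2 control and 2 Robo mutant libraries, with totals from 38886129 to 49593712 counts. Every library was heterozygous for Ucn3-Cre, in which the promoter of Ucn3, a gene of maturing β cells, drives the Cre recombinase, and for Rosa26-lsl-H2B-mCherry, a nuclear reporter that Cre switches on. The controls were Robo1+/+; Robo2+/+, and the mutants Robo1delta/delta; Robo2flx/flx, so that Robo1 is given as deleted, not as conditional, and loss of Robo2 depends on the Cre. The source labels name no animals, litters or pools, so a p-value here reflects library-to-library spread alone, possibly of technical origin.

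Syndecans span the membrane and end in a short cytoplasmic tail that binds PDZ-domain proteins such as syntenin, whereas glypicans are held on the outer face by a glycosylphosphatidylinositol anchor. On both, long sulfated sugar chains bind growth factors, morphogens and guidance cues and present them to their receptors. Slit ligands and Robo receptors both bind heparan sulfate, and a core protein bearing it acts as a coreceptor in Slit and Robo signalling. β cells are known to be rich in heparan sulfate.

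The members with the smallest p between the genotypes were Sdc3 and Sdc4, and the DNA before their transcription starts is shown because their log2 changes had opposite signs, although neither passed the test after adjustment. Each stretch covers the 250 bases before the start in RefSeq, build GRCm38.p6, read 5′ to 3′ on the strand of the gene, at chr4:130792287-130792536 on the plus strand for Sdc3 and chr2:164443189-164443438 on the minus strand for Sdc4. Neither window overlapped an exon in GENCODE M21, although a further Sdc4 transcript starts upstream, so that the Sdc4 window is intronic to it. Capitals mark every match to the GC box GGGCGG on either strand.
Sdc3: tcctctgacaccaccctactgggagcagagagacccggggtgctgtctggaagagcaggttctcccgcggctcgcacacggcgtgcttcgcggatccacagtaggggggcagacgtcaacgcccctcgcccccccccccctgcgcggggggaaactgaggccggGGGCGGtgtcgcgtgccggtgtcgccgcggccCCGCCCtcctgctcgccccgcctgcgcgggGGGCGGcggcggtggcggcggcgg
Sdc4: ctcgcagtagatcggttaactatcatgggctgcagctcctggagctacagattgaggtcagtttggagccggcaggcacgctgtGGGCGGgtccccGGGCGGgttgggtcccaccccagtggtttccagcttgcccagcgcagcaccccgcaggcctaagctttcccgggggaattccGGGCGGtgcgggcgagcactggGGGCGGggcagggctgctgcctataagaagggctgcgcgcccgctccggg
The Sdc3 stretch held 3 GC box matches and 32 CpG dinucleotides, and the Sdc4 stretch 4 matches and 19 CpG dinucleotides, beside a median of 6 CpG dinucleotides over 32851 promoters of the same length. GGGCGG was present on either strand in 32.7% of those promoters. Neither stretch held the letters TATAAA, present in 12.4% of promoters, or TGANTCA, the AP-1 site, present in 6.75%, on either strand. A match is a description of the letters only. Promoter entries were found for 7 of the 10 genes. Those of Sdc1, Gpc2, Gpc3, Gpc4 and Gpc5 held 1 to 3 GC box matches and 10 to 25 CpG dinucleotides. GC boxes and a CpG count above the median were thus not particular to Sdc3 and Sdc4.

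Levels are given as CPM, the counts scaled to a common library total with TMM factors, and where 4 values stand together they follow the order control 1, control 2, mutant 1, mutant 2. The genes targeted by the mutant alleles were lower in each mutant library than in each control, with Robo1 at 48.5, 104, 22.3 and 21.01 CPM and Robo2 at 75.2, 118, 32.7 and 25.6 CPM. The table counts whole genes and does not separate exons inside and outside the deleted parts. Markers of other cells were present to unequal extents. Markers of α cells (8 of 8 tested) summed to 23957, 12032.5, 19418.5 and 24302.8 CPM, with Gcg the most abundant. Those of PP and ε cells (4 of 4 tested) summed to 6413, 4317, 7139 and 5001 CPM. The part of these endocrine cells in the levels of the 10 genes was not tested. Acinar markers (12 of 12 tested) summed to 820 to 5699 CPM in control 1, control 2 and mutant 1 and to 55370 CPM in mutant 2, and insulin transcripts took 12.8% of counts in mutant 2 against 17.5% to 20.0% in the others. Fibroblast markers (8 of 8 tested) summed to 2224, 670, 891 and 15.5 CPM. Markers of δ cells (5 of 5 tested) summed to 1079, 996, 2520 and 1313 CPM, higher in both mutant libraries than in both controls, as were 2 of the 5 singly, Sst at 792, 711, 2144 and 803 CPM and Rbp4 at 258, 254, 329 and 470 CPM, beside 16.1% of all tested genes. None of the 5 passed the test in edgeR (adjusted p = 0.751 for Rbp4, unadjusted 0.0338), and the part of δ cells in the levels of the 10 genes was not tested. β-cell markers such as Ins2, Pdx1 and Nkx6-1 were present in all 4 libraries, and for 4 of 10 the mutant libraries both lay under the controls, beside 20.4% of all tested genes. Their summed level ran from 160199 CPM in mutant 2 to 231264 CPM in control 1. Levels are shares of a library's RNA, so fewer cells of a type and less RNA per cell cannot be told apart.

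One glypican supplied most of the family's transcripts in these libraries. Gpc4, whose protein is also known in a released form that binds the insulin receptor, stood at 95.3, 96.8, 107 and 104 CPM per kb of merged exons. It made up 63.5% to 72.0% of the summed CPM per kb of the 10 genes in each library. Its mean level was above that of 98.2% of the tested genes on the same scale. Every library of Gpc4 lay above every library of each of the other 9 genes.

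Next in order of mean level per kb came Sdc4, Sdc2, Sdc3 and Gpc3, with means over the 4 libraries of 14.8, 11.9, 9.68 and 8.49 CPM per kb. The ranges of neighbouring genes overlapped within this group, so their order is not fixed by these libraries. Gpc3 lay above Gpc1, the next gene, in every library, without overlap. Gpc1, Sdc1 and Gpc6 followed at means of 2.69, 1.53 and 1.31 CPM per kb, with overlapping ranges. Gpc2 was near the limit of detection with 74, 9, 0 and 0 counts. No count of Gpc5 was recorded in any library (0 counts), and a count of 0 leaves room for a level of 0.0600 to 0.0736 CPM, taking 3 counts as its upper limit (counting error only). Gpc5 and Gpc3 form 1 branch of the glypican family and Gpc1, Gpc2, Gpc4 and Gpc6 the other.

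**Figure D1:**
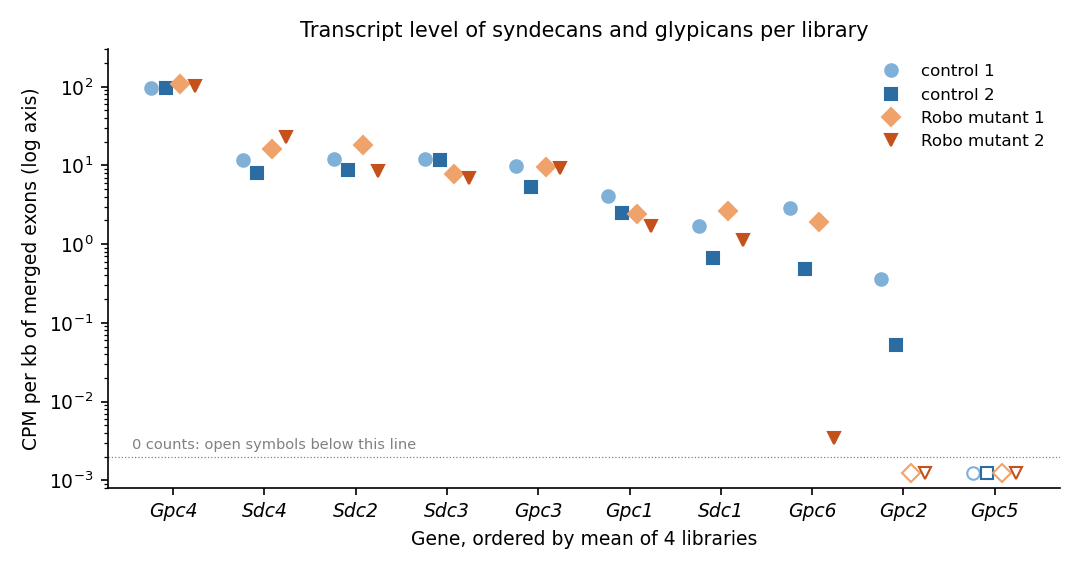
Level of each syndecan and glypican in each library, in CPM per kb of merged exons on a log axis, with 1 symbol per library and open symbols for 0 counts. Gpc4 sits near 100 CPM per kb in all 4 libraries (mean 100.8), and Gpc5 has 0 counts in all.

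Of the 10 genes, 8 passed the filter of at least 10 counts in at least 2 libraries and entered the comparison of genotypes. Gpc5 had no counts, and Gpc2 reached 10 counts in control 1 alone. With edgeR's quasi-likelihood test, 0 of the 8 had an adjusted p under 0.05, as did 0 of all 16517 tested genes (0%), and DESeq2, which called 0.914% of all tested genes, and limma also called 0 of the 8. At an unadjusted p under 0.05 in edgeR there were 2, Sdc3 on the lower and Sdc4 on the higher side, against 6.21% of all tested genes (1.99% higher and 4.21% lower). Both mutant libraries lay above both controls for Sdc4 and Gpc4 and below both for Sdc3 and Gpc1. That is 4 of 8, beside 36.6% of all tested genes (16.1% above and 20.4% below). The median log2 change of the 8 was 0.23 and that of all tested genes -0.013.

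**Figure D2:**
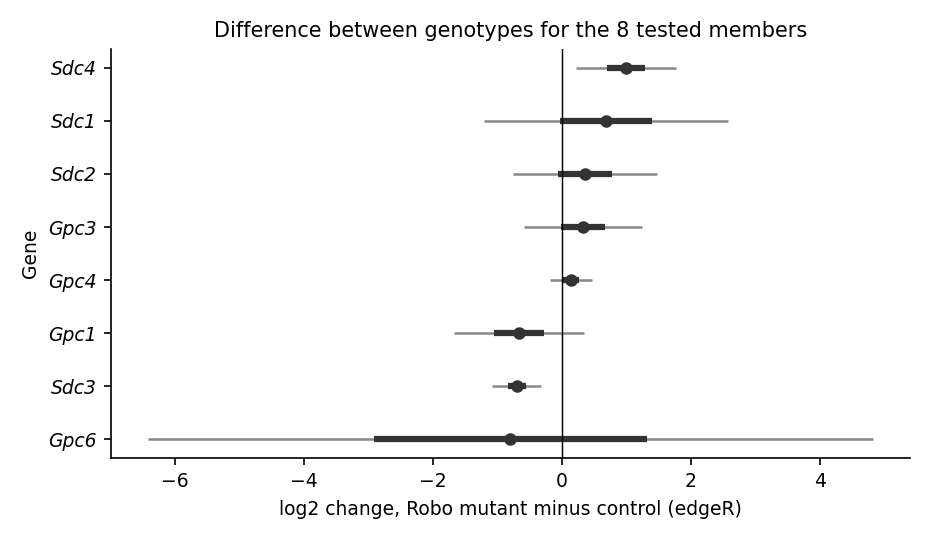
Log2 change from control to Robo mutant for the 8 tested genes by edgeR, with points for the estimate, thick bars for ± 1 SE and thin lines for the 95% interval (n = 2 libraries per genotype). The intervals of Sdc3 (-1.08 to -0.33) and Sdc4 (0.22 to 1.77) lie on opposite sides of 0, and the other 6 include 0.

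Among the syndecans, Sdc3 was lower in the mutant libraries. Sdc3 (ENSMUSG00000025743, chromosome 4, 130792537 to 130826319, plus strand, GRCm38), also called N-syndecan and best known as a neural receptor for pleiotrophin, stood at 72.9, 70.8, 47.1 and 41.2 CPM. The replicates lay close together and the genotypes did not overlap. The control mean was 71.8 ± 1.51 CPM and the mutant mean 44.2 ± 4.23 CPM (SD, n = 2 each), a 1.63-fold lower level. The log2 change of Sdc3 was -0.70 ± 0.14 (SE), with an adjusted p of 0.680 in edgeR (unadjusted 0.0057) and of 0.052 in DESeq2. Leaving out each library in turn gave log2 changes from -0.80 to -0.61, the latter without mutant 2, the library rich in acinar transcripts, and without control 1 the unadjusted p in edgeR was 0.0533. Schwann and neural markers (5 of 7 tested) summed to 8.64, 12.8, 3.46 and 13.3 CPM. Among them S100b, named after its values were seen, had 13, 5, 0 and 0 counts. The part of such cells in the level of Sdc3 was not tested. The 2 antisense genes annotated over its exons had 0 counts in every library.

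Sdc4 was higher in the mutant libraries. Sdc4 (ENSMUSG00000017009, chromosome 2, 164424247 to 164443887, minus strand, GRCm38), a component of focal adhesions whose tail binds protein kinase C α, stood at 29.96, 20.3, 41.6 and 58.5 CPM. The genotypes did not overlap, but the replicates of each differed more than those of Sdc3. The control mean was 25.1 ± 6.84 CPM and the mutant mean 50.1 ± 11.9 CPM (SD, n = 2 each), a 1.99-fold higher level. Its log2 change was 0.99 ± 0.29 (SE), with an adjusted p of 0.680 in edgeR (unadjusted 0.0222) and of 0.171 in DESeq2. Without control 2, the library with its lowest level, the log2 change was 0.74 and the unadjusted p in edgeR 0.108. Its highest library, mutant 2, was also the one with the most acinar transcripts (55370 CPM), whose part in the difference was not tested. Without mutant 2 the log2 change of Sdc4 was 0.73. Acinar markers summed to 5699, 820, 3558 and 55370 CPM over the 4 libraries, and control 2, the lowest, was also lowest in Sdc4. Control 1 and mutant 1 went the other way, with control 1 higher in acinar markers but lower in Sdc4.

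The balance between Sdc4 and Sdc3 did not overlap between the genotypes. The ratio of Sdc4 to Sdc3, in CPM per kb, was 0.966, 0.674, 2.08 and 3.34, so that Sdc3 was the more abundant in both controls and Sdc4 in both mutant libraries. As a ratio within a library it does not depend on the scaling of totals. The pair was chosen after its values were seen. With Sdc4 above and Sdc3 below both controls in each mutant library, the ratio could not overlap between the genotypes. It is therefore no separate result and is given without a test. Sdc3 made up 32.3% and 40.4% of syndecan transcripts per kb in the controls and 17.4% in each mutant library. Sdc4 made up 31.2% and 27.2% in the controls and 36.2% and 58.2% in the mutants. Summed over the 4 syndecans the level was 37.7 and 29.3 CPM per kb in the controls and 45.2 and 39.4 CPM per kb in the mutants. The summed glypicans stood at 112 and 105 CPM per kb in the controls and at 121 and 115 CPM per kb in the mutants.

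**Figure D3:**
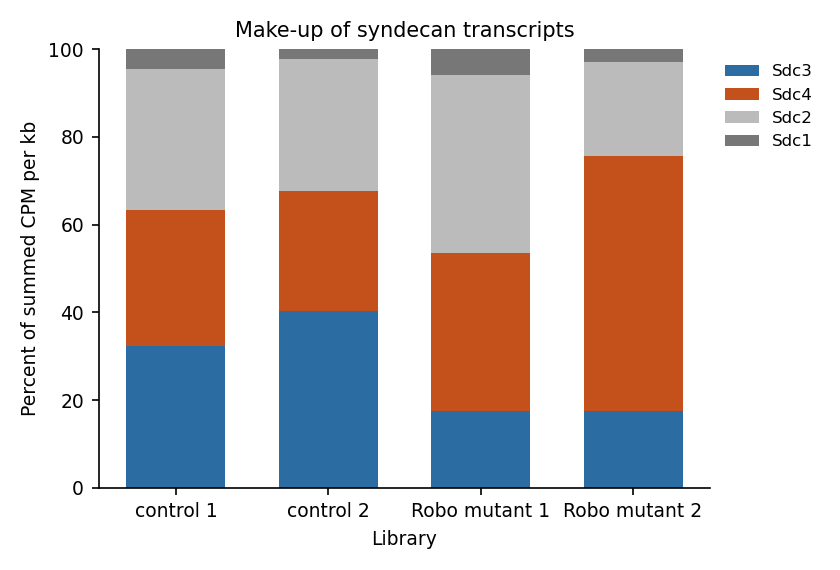
Share of each syndecan in the summed CPM per kb of the 4 syndecans, 1 bar per library. Sdc3 takes 32.3% and 40.4% in the controls and 17.4% in each mutant library, and the Sdc4 share is largest in mutant 2 at 58.2%.

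Sdc2 and Sdc1 varied within the genotypes as much as between them. Sdc2, a syndecan typical of mesenchymal cells, was at 42.7, 31.1, 64.6 and 29.9 CPM. Mutant 1 was the highest and mutant 2 the lowest of the 4. The fibroblast markers (2224, 670, 891 and 15.5 CPM) were highest in control 1 and also lowest in mutant 2, and their part in the level of Sdc2 was not tested. The log2 change of Sdc2 was 0.36, with a 95% interval from -0.76 to 1.48 (adjusted p = 0.9999 in edgeR), 0.81 without mutant 2 and -0.30 without mutant 1. Sdc1, the syndecan of epithelia and plasma cells, was at 6.41, 2.55, 10.1 and 4.31 CPM. The first library of each genotype was the higher one, and the genotypes overlapped. The log2 change of Sdc1 was 0.68 (95% interval -1.21 to 2.57), 1.49 without control 1, 0.17 without control 2, -0.057 without mutant 1 and 1.17 without mutant 2.

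Gpc4 (ENSMUSG00000031119, chromosome X, 52053021 to 52165252, minus strand, GRCm38) was the most even member across libraries. It stood at 253 and 257 CPM in the controls and at 285 and 275 CPM in the mutants. Replicates differed by at most 1.04-fold, and both mutant libraries lay above both controls, with means of 255 ± 2.88 and 279.7 ± 7.27 CPM (SD, n = 2 each). The log2 change was 0.14 ± 0.12 (SE), with a 95% interval from -0.19 to 0.46 and an adjusted p of 0.992 in edgeR. Gpc3, a glypican that binds Hedgehog and restrains growth, lies next to Gpc4 on chromosome X (52272426 to 52613950, minus strand, GRCm38). Its levels were 26.3, 14.2, 25.5 and 25.3 CPM, so that control 2 alone stood apart. The log2 change of Gpc3 was 0.33 (95% interval -0.59 to 1.25), 0.83 without control 1 and -0.047 without control 2. Xist, the RNA of the inactive X chromosome, had at most 1 count in a library and the Y-linked Ddx3y was at 69.6 to 88.8 CPM, so no library carried the mark of an inactive X chromosome.

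Gpc1, a glypican that binds Slit2 and fibroblast growth factors, was lower on average in the mutant libraries without passing the test. It was at 21.1, 12.9, 12.6 and 8.84 CPM. The groups did not overlap, but control 2 and mutant 1 were nearly equal. The log2 change of Gpc1 was -0.66 ± 0.38 (SE), with an adjusted p of 0.922 in edgeR, -0.26 without control 1, -0.98 without control 2 and -0.43 without mutant 2. Ankmy1, which overlaps exons of Gpc1 on the other strand, had 23, 28, 61 and 155 counts, against 1012, 525, 631 and 402 for Gpc1. The libraries carry no strand information, so reads in the shared part cannot be told apart.

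Gpc6, known for mesenchymal expression and for promoting synapses, ranged more widely within each genotype than between them. Its counts were 879, 125, 615 and 1, that is 18.4, 3.07, 12.3 and 0.0220 CPM. Its log2 change was -0.80, with a 95% interval from -6.42 to 4.83, and leaving out 1 library moved it between -8.76 (without mutant 1) and 1.005 (without control 1), with 0.20 without mutant 2. Gpc6 followed the same order of libraries as the fibroblast markers given above. Pericyte and smooth muscle markers (7 of 7 tested) summed to 289, 72.4, 275 and 2.04 CPM in the same libraries, with Pdgfrb and Rgs5 at 0 in mutant 2. Cspg4 of the same list went the other way, with 0, 63, 0 and 79 counts. In mutant 2 the fibroblast markers Col1a1 and Pdgfra were also at 0. The part of these cells in the level of Gpc6 was not tested. Gpc2, a glypican of the developing nervous system, lay at least 14.0-fold lower in the mutants than in the controls, taking 3 counts per library as the floor. That bound falls to 3.51 without control 1, which held 74 of its counts. Both bounds cover counting error in the mutant libraries only, not that of the control counts, of which control 2 had 9. Fewer genes had a count in the mutant libraries (17751 and 17937) than in the controls (19919 and 20918). The part of this difference in the 0 counts of Gpc2 was not tested.

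**Figure D4:**
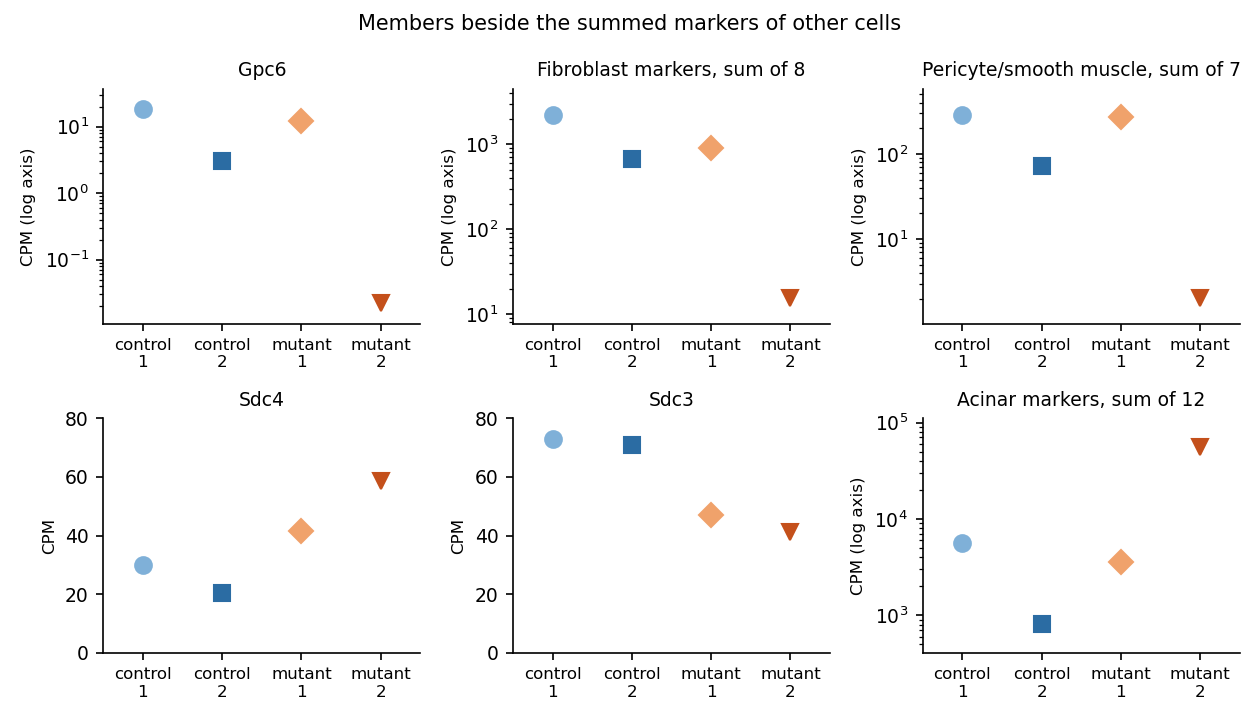
CPM per library of Gpc6, Sdc4 and Sdc3 and the summed CPM of fibroblast, pericyte and smooth muscle, and acinar markers (log axes except for Sdc3 and Sdc4, which start at 0). Gpc6 and the fibroblast and pericyte markers are all lowest in mutant 2 (0.0220, 15.5 and 2.04 CPM), where the acinar markers are highest (55370 CPM).

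The chains that these core proteins carry are built by a separate set of enzymes, and 0 of those passed the test in edgeR. Of 28 enzymes of chain synthesis and modification 23 were tested, 9 higher and 14 lower in the mutant, with a median log2 change of -0.20. In edgeR 3 of the 23 had an unadjusted p under 0.05, beside 6.21% of all tested genes, and DESeq2 called 0, beside 0.914%. Both mutant libraries lay below both controls for 8 and above both for 3, beside 20.4% and 16.1% of all tested genes. Ext1, which with Ext2 forms the chain polymerase, was at 31.7 and 23.3 CPM in the controls and 14.7 CPM in each mutant library. Its log2 change was -0.91 ± 0.25 (SE, n = 2 each; adjusted p = 0.680 in edgeR), whereas that of Ext2 was 0.074. The N-deacetylase and N-sulfotransferase gene Ndst1 was at 97.2 and 95.3 CPM in the controls and at 60.7 and 81.2 CPM in the mutants (log2 change -0.44).

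The other members of this list with the smallest p had low counts. The 6-O-sulfotransferase gene Hs6st2 had 156, 10, 0 and 0 counts, a level at least 27.8-fold lower in the mutants, or 3.90-fold by control 2 alone. These bounds cover counting error in the mutant libraries only, not that of the control counts. They do not account for the fewer genes with a count in the mutant libraries. Hs6st2 passed the filter only through its controls, with control 2 at the limit of 10 counts. With a mean of at least 1 CPM as filter, 2 genes of the list had an unadjusted p under 0.05 in edgeR. The 3-O-sulfotransferase gene Hs3st1 had 18, 13, 200 and 70 counts, a log2 change of 2.98 ± 0.93 (SE, n = 2 each). The most abundant members per kb were Fam20b, the kinase of the linker xylose (log2 change -0.13), and Extl2, a glycosyltransferase of chain initiation (0.067).

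**Figure D5:**
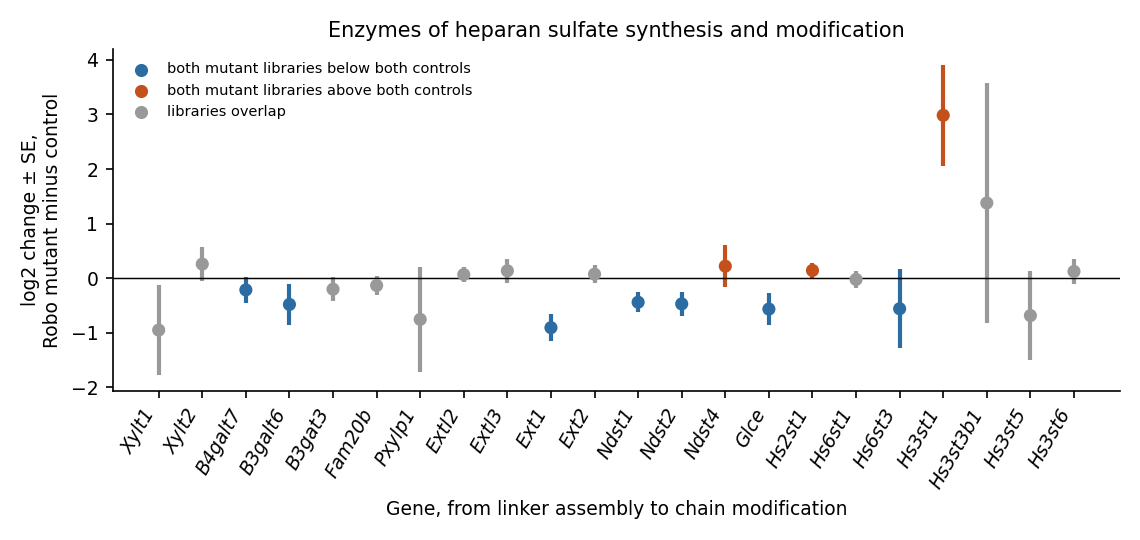
Log2 change ± SE (edgeR, n = 2 per genotype) for the 22 tested enzymes of heparan sulfate synthesis with counts in both genotypes, grouped from linker assembly to chain modification and coloured by whether the libraries of the genotypes overlap. Hs6st2, with 0 counts in both mutant libraries, is not drawn, and Ext1 (-0.91) and Hs3st1 (2.98) have both mutant libraries on 1 side of the controls.

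Genes for the supply of sugar and sulfate donors gave no call. All 10 genes were tested, 6 higher and 4 lower, with a median log2 change of 0.055. In edgeR 0 had an unadjusted p under 0.05, beside 6.21% of all tested genes. DESeq2 called 0 at an adjusted p, beside 0.914%. Papss2, which makes the sulfate donor, was the most abundant at 940 to 1251 CPM (log2 change 0.076). Of 19 genes for chain trimming, shedding and breakdown, 15 were tested, 5 higher and 10 lower (median -0.16), with 2 at an unadjusted p under 0.05, 0 adjusted in edgeR and 1 in DESeq2, beside 6.21%, 0% and 0.914% of all tested genes. The call of DESeq2 was Sulf1, an extracellular enzyme that removes 6-O-sulfate, with 105, 181, 0 and 0 counts. Its mutant level lay at least 52.7-fold below that of the controls, or 34.8-fold by control 1 alone (adjusted p = 0.000303 in DESeq2, 0.680 in edgeR). As for Hs6st2, the bounds cover counting error in the mutant libraries only. The fewer genes with a count in the mutant libraries were not accounted for. With 0 counts in both mutants, Sulf1 passed the filter only through its controls, so its p-values are not free of that selection. Its relative Sulf2 had a log2 change of -0.019. The lysosomal acetyltransferase gene Hgsnat was at 48.4 and 51.3 CPM in the controls and at 38.6 and 30.8 CPM in the mutants (log2 change -0.52).

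Other carriers of heparan sulfate and partners of the syndecan tail showed no call. Of 9 other proteoglycans all were tested, 3 higher and 6 lower (median -0.16). In edgeR 0 had an unadjusted or an adjusted p under 0.05, beside 6.21% and 0% of all tested genes. DESeq2 called 0, beside 0.914%. In a list this short, 0 lies close to those shares. Spock2 and Spock1, testican genes, were the most abundant per kb at 18.5 and 11.9 CPM per kb on average. Serglycin (Srgn), a proteoglycan of granules in blood cells, had 64, 25, 174 and 165 counts (log2 change 1.86). Immune markers summed to 59.2, 33.0, 57.6 and 71.7 CPM in the same libraries, and their part in it was not tested. Of the cytoplasmic partners 10 were tested, 5 higher and 5 lower (median -0.051). In edgeR 0 had an unadjusted or adjusted p under 0.05 and DESeq2 called 0, beside the same shares of all tested genes. Syntenin (Sdcbp), the most abundant, was at 219 to 239 CPM (log2 change 0.025).

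Among 31 receptors and ligands that depend on heparan sulfate 23 were tested, 11 higher and 12 lower (median -0.011), with 4 at an unadjusted p under 0.05, all lower, 0 adjusted in edgeR, and 2 called by DESeq2. Of all tested genes 4.21% were lower at that unadjusted p, and DESeq2 called 0.914%. The 4 were Robo1, Robo2, Slit2 and Slit3. Both calls of DESeq2 were Robo1 and Robo2, which the mutant alleles target, so these counts are not a result about the rest of the list. DESeq2 called neither Slit2 nor Slit3 (adjusted p = 0.202 and 0.310 in DESeq2). Slit3 was at 6.06 and 3.43 CPM in the controls and at 1.14 and 1.21 CPM in the mutants. Slit2 was at 13.7 and 3.31 CPM in the controls and at 0.480 and 1.74 CPM in the mutants. The most abundant members, Vegfa (log2 change 0.22) and the receptor phosphatase gene Ptprf (-0.093), did not pass.

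Over the whole table, the named genes whose profile over the 4 libraries was most like that of Sdc3 were Micall1, Irgm1 and Kyat1. Likeness was the root mean square distance of log2(CPM + 1) centred on each gene's mean, over 4 libraries and 9016 genes with a mean of at least 10 CPM. It was 0.0222, 0.0271 and 0.0303 for the 3 genes. With 4 points, many genes share such a profile, and nothing else is read from it.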

How the data were processed

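RNA of sorted cells was turned into cDNA with the SMART-Seq v4 kit and tagged with Nextera XT, per the labels' protocols, a chemistry without strand information. Per the submitters' processing notes, the tools were edgeR 3.16.5, RSEM 1.3.0, STAR 2.5.3a and bcl2fastq 2.20.0.422, on build GRCm38. The annotation and each tool's role: not given in the sources used here. All deposited values are the authors' gene-level expected counts in whole numbers. The table's name calls them normalized, but totals differ, so they were treated as estimated counts. An earlier rescaling is possible, in which case counting limits are approximate.

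The 16517 genes that reached 10 counts in 2 or more libraries were tested two-sided with edgeR 4.0.16 in R 4.3.3 (TMM, glmQLFit, glmQLFTest), Robo mutant against control, adjusted over all of them by Benjamini-Hochberg at 0.05. SE is the log2 change over the root of the F statistic. DESeq2 1.42.0, limma 3.58.1 (log2 CPM, prior count 2), other scaling factors, other filters and leaving out each library were alternatives. The script was tested on simulated data. Exon lengths and positions came from GENCODE M21 (GRCm38), which held 51719 of the 51912 identifiers. The members, lists and markers were chosen with earlier results of these data known. Named were every member, Robo1 and Robo2, up to 4 genes of smallest p and the 2 most abundant per kb from each list (not all are printed), leading markers, and 3 genes most like the member of smallest p. Genes named besides (Ext2, Sulf2, Ankmy1, some markers) were chosen after their values were seen. The symbol Ctnn of the partner list, a misspelling of Cttn, matched no gene, so Cttn was left out by that error. Replicate numbers follow accession order.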

Additional observations from a re-analysis of the deposited data

How the results depend on the processing

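No syndecan or glypican reached an adjusted p under 0.05 in edgeR, DESeq2 or limma, under any scaling or filter, or without any 1 library. The log2 change of Sdc3 stayed between -0.80 and -0.61 and that of Sdc4 between 0.73 and 1.305 over all 11 alternatives, with adjusted p from 0.052 to 0.9999 and from 0.140 to 0.9999. Leaving out 1 library gave 1 to 3 tested genes of the family at an unadjusted p under 0.05 and a median log2 change from -0.18 (without mutant 1) to 0.72 (without control 1). Leaving out 1 library turned the sign for Sdc1 (-0.057 without mutant 1, up to 1.495), Sdc2 (-0.30 without mutant 1, up to 0.81), Gpc3 (-0.047 without control 2, up to 0.83) and Gpc6 (0.20 without mutant 2 and 1.005 without control 1, down to -8.76). The cause was not tested. With 1 library in a genotype, that library is assumed to vary like the others. Counts at an unadjusted p under 0.05 ranged, leaving out 1 library, from 0 to 6 for chain synthesis, 0 to 1 for donor supply, 0 to 3 for trimming and breakdown, 0 to 3 for other proteoglycans, 0 to 3 for cytoplasmic partners and 2 to 8 for receptors and ligands. Over all genes the same count ran from 181 without control 2 to 3038 without mutant 1. DESeq2 and limma each put 1 other proteoglycan under that level, against 0 in edgeR. Without a filter Gpc2 entered with a log2 change of -8.35 (adjusted p = 0.905 in edgeR), which depends on the prior count. With the longest transcript as length, Gpc6 ranked above Sdc1. No paired analysis was possible because the labels give no replicate numbers.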
